A study of Mus musculus with 10 samples.

Results

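The insulin-like growth factor (IGF) genes described here are the ligands Igf1 and Igf2, the receptors Igf1r, Igf2r and Insr, and the binding proteins Igfbp2, Igfbp3, Igfbp4, Igfbp5 and Igfbp7. They were chosen by gene name, and every counted transcript annotated to any of these 10 genes was taken. Counts were matched to 7 of the 10 genes, with 17 transcripts among the 22534 transcripts of 13189 genes in the whole series. Igf1 and Igf2 had 5 transcripts each, Igfbp2 and Igfbp4 had 2 each, and Igf2r, Igfbp5 and Insr had 1 each. Igf1r, Igfbp3 and Igfbp7 were not analysed here.

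The study grew cortical cells of newborn FVB mice as a mixture of neurons and glia and asked how sustained depolarization changes translation. The 3 untreated cultures (1, 2 and 3) were compared with 2 cultures (4 and 5) that had received 55 mM KCl for 3 h, which depolarizes neurons. Cycloheximide, which stalls ribosomes on mRNA, was given to all cultures before harvest. From each lysate, total RNA gave an RNAseq library and the ribosome-protected RNA fragments gave a ribosome footprinting (RF) library. Whole cultures were lysed, so the cell types cannot be separated, and fewer cells of a type and less RNA per cell cannot be told apart. RNAseq libraries were similar in depth (3056286 to 3629959 reads). Footprint depth varied more, from 7719915 and 6551613 reads in untreated cultures 1 and 2 to 1463654 in untreated culture 3, 1608235 in KCl culture 4 and 3120710 in KCl culture 5, and values from cultures 3 and 4 are the least precise. Untreated culture 3 also stood apart in having 8.56% of its footprints on 5′UTRs, against 6.04% to 7.54% in the other 4. The labels name the source as neurons, but astrocyte markers were the most abundant list. The RNAseq levels of its 8 genes, in reads per kilobase of transcript scaled to library size (RPKM), summed to between 3901 and 4382 in the untreated cultures, and those of the 7 neuronal markers with a counted transcript to between 274 and 399. Most of the astrocyte sum was Gfap (1995 to 2646 RPKM untreated), and such sums do not measure shares of cells.

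IGF1 and IGF2 are secreted growth factors that signal through the receptor tyrosine kinases IGF1R and INSR to PI3K, AKT and mTOR, a pathway that itself drives protein synthesis. IGF2R, the mannose 6-phosphate receptor, takes up IGF2 and delivers it to lysosomes. The IGF binding proteins are secreted carriers that hold the ligands in the extracellular space and set how much of them reaches the receptors, and in the brain several of them are made by glia.

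Ribosomes load at the cap, scan the 5′UTR and usually begin at an ATG whose neighbouring bases favour initiation, namely a purine 3 bases before the ATG and a G directly after it. The start codons of the leading transcripts (for each gene the transcript with the most RNAseq reads) are shown because the changes below fall on either side of them, in the coding sequence (CDS) and in the 5′UTR. The sequences are those of GENCODE M21 on GRCm38, 5′ to 3′, with the start codon in capitals, and each position is that of the start codon.
Igfbp5 (ENSMUST00000027377, chr1:72874137-72874139, minus strand): gactccgagaaaATGgtgatcagc
Igfbp2 (ENSMUST00000047328, chr1:72824580-72824582, plus strand): ccacaagccaacATGctgccgaga
Igfbp4 (ENSMUST00000017637, chr11:99041497-99041499, plus strand): ctcgtcctcgccATGctgcccttc
Igf2, leading transcript (ENSMUST00000121128, chr7:142658388-142658390, minus strand): cgcagcagggagATGggcggcagc
Igf2, shorter transcript (ENSMUST00000000033, chr7:142655808-142655810, minus strand): cttcaggtaccaATGgggatccca
Igf1 (ENSMUST00000095360, chr10:87859350-87859352, plus strand): acttcagaagcgATGgggaaaatc
The 3 further Igf2 transcripts begin at the same ATG as ENSMUST00000000033, and ENSMUST00000097936 shares its printed bases. Of the transcripts shown, both favourable bases were present in Igfbp5, Igf1 and the leading Igf2 transcript, and 46.6% of the 4215 leading transcripts that were tested and annotated with an ATG start hold both. The 5′UTR of Igfbp5 is 745 nt long and that of the leading Igf2 transcript 1099 nt, and neither contains an upstream ATG in any frame. Of 120 leading transcripts with a 5′UTR of at least 745 nt, 8 (6.67%) contain none. The 5′UTR of Igf1 (282 nt) holds 4 upstream ATGs. Igfbp4 and Insr hold 1 each, and Igfbp2 and Igf2r hold none.

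In the untreated cultures, the binding proteins Igfbp2 and Igfbp5 were the most abundant of the 7 genes by far. RNAseq levels were 545 ± 40.3 RPKM for Igfbp2 and 477 ± 51.6 for Igfbp5 (SD, n = 3 for all untreated values), and the ranges of the pair overlapped. Igf2 followed at 139 ± 14.2, Igfbp4 at 28.1 ± 0.604, Igf2r at 11.1 ± 0.538, Insr at 8.04 ± 0.573 and Igf1 at 4.49 ± 0.507 RPKM, none of these overlapping its neighbour. The place of Igf1 depended on the transcript taken, since the shorter ENSMUST00000121952 was at 14.2 ± 3.42 RPKM. On the leading Igf1 transcript, untreated RNAseq reads per kb were 5.07 to 8.24 on the 6308-nt 3′UTR and 41.4 to 71.9 on the CDS. Igfbp2 lay above 98.9% and Igfbp5 above 98.7% of the 4236 leading transcripts tested, whose median was reached by Igfbp4 (50.8%). The leading transcripts of Igf1 and Insr lay near the bottom of that range. Both were below the minimum of 10 RPKM that the tested transcripts had met, so this place was set by the minimum.

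RF levels on the CDS gave another order. Igfbp5 led with 2814 ± 3.69 RPKM, above 99.8% of the leading transcripts tested. This SD is smaller than counting error from the 2446 CDS footprints of untreated culture 3 and understates the uncertainty. Igfbp2 followed at 933 ± 117, Igf2 at 433 ± 19.6, Igfbp4 at 96.2 ± 17 and Igf2r at 44.3 ± 2.37, while Igf1 (25.7 ± 9.12) and Insr (19.5 ± 1.23) overlapped. Translation efficiency (TE), the ratio of RF to RNAseq RPKM in the same culture, therefore separated the 2 abundant binding proteins. It was 5.95 ± 0.69 for Igfbp5, above 96.3% of the leading transcripts tested, and 1.73 ± 0.351 for Igfbp2, above 46.4%. Between them stood Igf1 (5.77 ± 1.99), Igf2r (4.01 ± 0.32), Igfbp4 (3.42 ± 0.584), Igf2 (3.14 ± 0.482) and Insr (2.44 ± 0.226). Neighbours overlapped from Igfbp5 down to Igf2, whereas Igf2, Insr and Igfbp2 were apart from each other. The TE of Igf1 also depended on the transcript, at 1.88 ± 0.227 for ENSMUST00000121952. The RNAseq level in TE covers the whole transcript. Untreated RNAseq reads per kb were lower on the CDS than on the 3′UTR for Igf2, Igf2r, Igfbp2, Igfbp4 and Igfbp5, and higher for Igf1 and Insr. For Igfbp4 they were 24.9 to 34.1 on the CDS and 84.3 to 89.9 on the 3′UTR. The order of TE therefore depends on the regions counted in RNAseq.

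**Figure D1:**
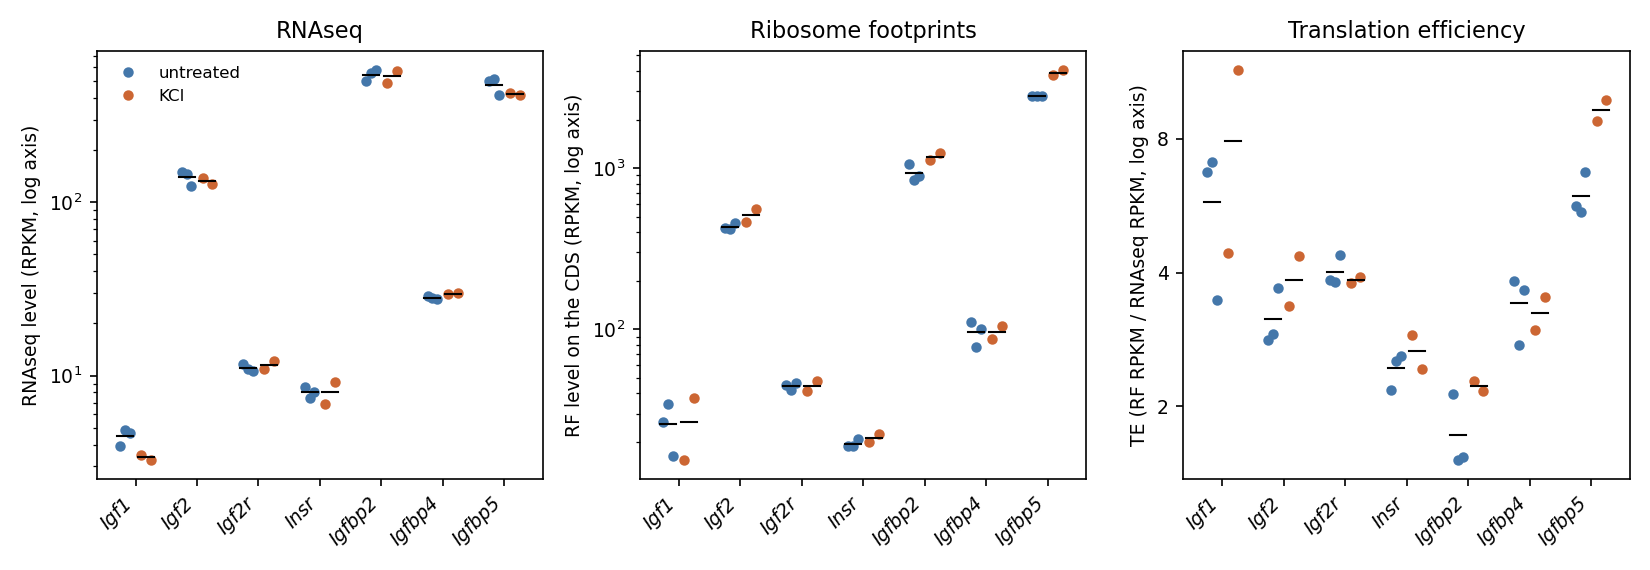
RNAseq level, RF level on the CDS (both in RPKM) and TE of the leading transcript of each IGF gene on log axes. Each point is a culture and each bar a group mean (untreated n = 3, KCl n = 2). Igfbp5 has the highest RF level in every culture, and its KCl cultures lie above its untreated cultures in RF and TE but not in RNAseq.

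**Figure D2:**
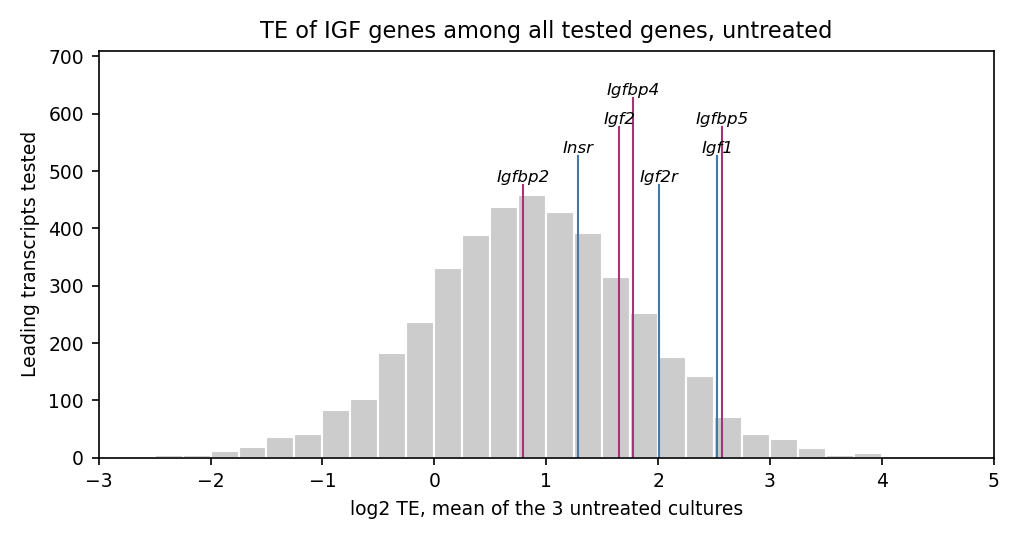
Distribution of log2 TE over the leading transcripts tested (grey bars, mean of the 3 untreated cultures), with the IGF genes as vertical lines. Lines in purple mark genes that passed the minimum for testing and lines in blue genes that did not. Igfbp5 lies above 96.3% and Igfbp2 above 46.4% of the tested transcripts.

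KCl was then compared with no treatment over all transcripts with at least 10 RPKM in both assays in at least 2 cultures (7262 transcripts). For this minimum, RPKM were scaled to all counted reads of a library, whereas the RPKM printed here use effective library sizes of the tested transcripts and are 1.25 to 1.45 times as large. This minimum was met by the leading transcripts of Igf2, Igfbp2, Igfbp4 and Igfbp5 and, in all, by 11 of the 17 IGF transcripts. No leading IGF transcript changed in RNAseq, whereas 3 of the 4 rose in RF and 1 of the 4 rose in TE. Among all leading transcripts tested, 33.1% changed in RNAseq in either direction, 21.2% rose in RF and 1.56% rose in TE at an adjusted p under 0.05 (edgeR's quasi-likelihood test with Benjamini-Hochberg adjustment). In RNAseq, none of the 4 had an unadjusted p under 0.05 and DESeq2 also called none. Their median log2 change was −0.05 in RNAseq, 0.30 in RF and 0.35 in TE, and the medians over all leading transcripts tested were −0.01, −0.0048 and 0.02. The 3 comparisons use the same cultures, so they are not independent of each other. For a value taken on its own, an exact permutation of 3 cultures against 2 cannot give p below 0.1.

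**Figure D3:**
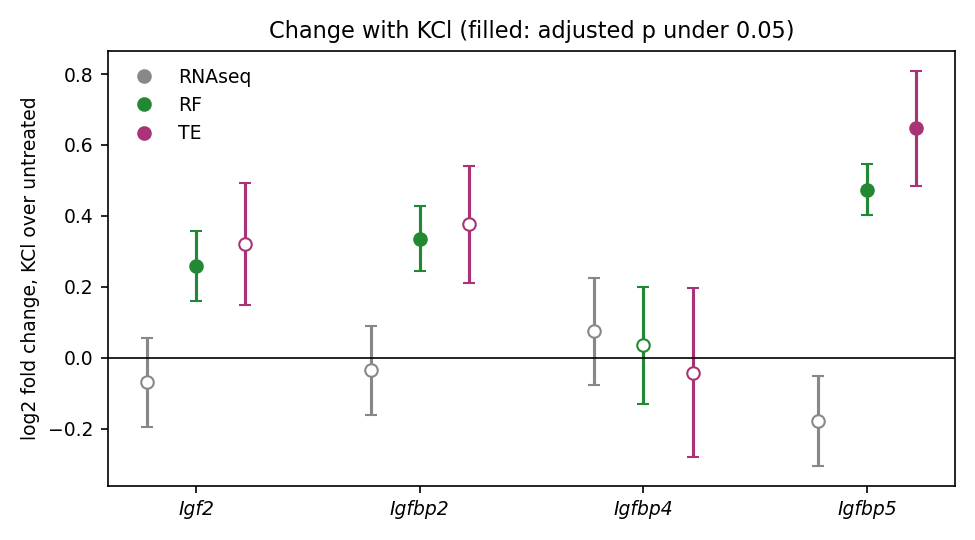
Log2 fold change of KCl over untreated cultures for the 4 tested IGF genes in RNAseq, RF and TE. Bars are approximate standard errors and filled points have an adjusted p under 0.05 (edgeR). Igfbp5 is at −0.18 in RNAseq, 0.47 in RF and 0.65 in TE.

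Igfbp5, a secreted binding protein that also attaches to the extracellular matrix, gained footprints on its CDS without gaining mRNA. Its RNAseq levels were 499, 514 and 418 RPKM in untreated cultures 1 to 3 and 429 and 414 RPKM in KCl cultures 4 and 5. The KCl cultures lay close to untreated culture 3, and the log2 change of −0.18 (SE 0.126, edgeR adjusted p = 0.297) did not pass the test. With CDS reads alone it was −0.37 (SE 0.154, edgeR adjusted p = 0.0683). Its RF levels were 2815, 2810 and 2817 RPKM untreated and 3771 and 4044 with KCl. The groups did not overlap, and RF rose by 0.47 on the log2 scale (SE 0.0723, edgeR adjusted p = 5.97e-06). With 5′UTR footprints added to those on the CDS, the groups overlapped and the rise was smaller, as given below. TE was 5.64, 5.47 and 6.74 untreated and 8.79 and 9.77 with KCl, again without overlap. TE rose by 0.65 (SE 0.163, edgeR adjusted p = 0.00333), and by 0.84 (SE 0.168, edgeR adjusted p = 0.000131) when only reads on the CDS were counted in RNAseq. The TE call was lost without KCl culture 4 (log2 change 0.73, edgeR adjusted p = 0.0729) and without KCl culture 5 (0.57, edgeR adjusted p = 0.309). Of the RNAseq reads of Igfbp5, 82.7% to 86.6% lay on its 3′UTR.

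Levels of the 8 astrocyte markers also differed between the groups. Their summed RNAseq level was 3901 to 4382 RPKM in the untreated cultures and 3357 to 3429 with KCl, and 4 of the 8 fell in RNAseq (Aqp4, Slc1a3, Slc1a2 and Sox9). Their summed RF level was 16356 to 17027 untreated and 18005 to 18032 with KCl, 3 of the 8 rose in RF (Aqp4, Slc1a3 and Gja1) and Sox9 fell. In TE, 2 of the 8 rose, namely Aqp4 with a log2 change of 0.87 and Slc1a3 with 0.63. None of the 8 was at 0, and the part of astrocytes in the Igfbp5 result was not tested. Among all leading transcripts tested, 21.2% rose in RF and 1.56% rose in TE. Of all 7262 transcripts tested, 1095 fell in RNAseq. Of the 4 neuronal markers tested, none changed in RNAseq or TE and 1, Snap25, rose in RF. The summed RF level of the neuronal markers was 631.5 to 1006 RPKM untreated and 1028 to 1167 with KCl. For the oligodendrocyte lineage it was 1227 to 1355 untreated and 1361 to 1482 with KCl, with 1 marker higher and Pdgfra lower in RF. For fibroblasts and meninges it was 2484 to 2736 untreated and 2831 to 2852 with KCl, with 2 markers higher and Col1a1 and Col3a1 lower in RF and TE. For endothelial cells it was 26.8 to 31.9 untreated and 21.6 to 26.3 with KCl. For microglia it was 403 to 439 untreated and 434 to 471 with KCl, with C1qa higher and C1qb not called in RF. For pericytes and smooth muscle it was 75.1 to 98.7 untreated and 69.3 to 83.6 with KCl. The part of these cells was not tested either.

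Over the 10 libraries, centred within each assay, the genes whose levels followed those of Igfbp5 most closely were Abhd2 (Pearson r = 0.91), Tgfb2 (0.90), Gpc6 (0.89), Lhpp (0.88) and Epdr1 (0.88). These points share their libraries, and the values are a description. The log2 change of these genes was between −0.10 and −0.06 in RNAseq and between 0.27 and 0.49 in RF, which largely follows from how they were picked. TGFB2 is a secreted growth factor and GPC6 a cell-surface proteoglycan.

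Igfbp2, the other abundant binding protein and a known product of astrocytes, showed a smaller change of the same direction in RF. Its RNAseq levels were 499.5, 557 and 577 RPKM untreated and 489 and 574 with KCl, so the groups overlapped (log2 change −0.03, SE 0.126, edgeR adjusted p = 0.864). Its RF levels were 1066, 846 and 886 RPKM untreated and 1117 and 1240 with KCl. The groups were apart, with untreated culture 1 close to KCl culture 4, and RF rose by 0.34 (SE 0.0917, edgeR adjusted p = 0.00462). TE was 2.13, 1.52 and 1.54 untreated and 2.28 and 2.16 with KCl, where the lower KCl culture exceeded untreated culture 1 only slightly. The log2 change in TE of 0.38 (SE 0.165, edgeR adjusted p = 0.188) did not pass the test. The RF call was lost without KCl culture 5 (log2 change 0.26, edgeR adjusted p = 0.166), and TE passed without untreated culture 1 (0.55, edgeR adjusted p = 0.00573).

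Igf2, the ligand with the higher level, had RNAseq levels of 150.4, 145, 123, 138 and 128 RPKM in cultures 1 to 5, with overlapping groups (log2 change −0.07, SE 0.127, edgeR adjusted p = 0.715). Its RF levels were 424, 420.5 and 456 RPKM untreated and 464 and 558 with KCl. The groups were apart by a narrow margin, and most of the difference lay in KCl culture 5. The log2 change in RF was 0.26 (SE 0.0993, edgeR adjusted p = 0.0382). It did not pass in 7 of 12 alternatives. Among them were 5′UTR and CDS footprints together (0.20, edgeR adjusted p = 0.104), library totals (0.16, edgeR adjusted p = 0.217), gene sums (0.24, edgeR adjusted p = 0.0535) and 1 fit of all libraries (0.25, edgeR adjusted p = 0.0917). The others were DESeq2 (0.26, adjusted p = 0.0978) and leaving out untreated culture 1 (0.25, edgeR adjusted p = 0.0916) or KCl culture 5 (0.11, edgeR adjusted p = 0.64). TE was 2.82, 2.91, 3.70, 3.37 and 4.35 in cultures 1 to 5, with overlapping groups, and its change of 0.32 (SE 0.172, edgeR adjusted p = 0.33) did not pass. The other 4 Igf2 transcripts had identical CDS footprints of 1348, 1139, 263, 285 and 656 reads in cultures 1 to 5. Reads shared by isoforms were counted on each of them, so the 5 transcripts are not separate measurements.

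Igfbp4, which binds both ligands, did not pass in any assay. Its RNAseq levels were 28.7, 28.1 and 27.5 RPKM untreated and 29.4 and 29.8 with KCl, apart by a small margin. Its RF levels were 110, 77.3 and 101 RPKM untreated and 87.5 and 105 with KCl, with full overlap. The log2 changes were 0.07 in RNAseq (SE 0.151), 0.04 in RF (SE 0.165) and −0.04 in TE (SE 0.237), and each changed sign under some alternatives, the RNAseq and RF values with library totals among them.

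The leading transcripts of Igf1, Igf2r and Insr did not meet the minimum. On its scale, Igf2r had 8.17 to 9.18 RPKM in RNAseq and 28.9 to 33.8 in RF, so that it was just below in RNAseq, although the values printed here exceed 10. On the printed scale, 4 of the IGF transcripts left out would have met it. Igf1 had 71, 88, 81, 60 and 63 RNAseq reads and 70, 78, 8, 8 and 37 CDS footprints in cultures 1 to 5. Its RNAseq level was 3.92, 4.87 and 4.70 RPKM untreated and 3.50 and 3.27 with KCl, without overlap. Its TE was 6.74, 7.09 and 3.48 untreated and 4.43 and 11.4 with KCl, with overlap and with only 8 footprints each behind the values of cultures 3 and 4. A shorter Igf1 transcript (ENSMUST00000121952) met the minimum with 21 to 40 RNAseq reads per library, and its log2 changes of 0.30 in RNAseq (SE 0.325), −0.17 in RF (SE 0.339) and −0.41 in TE (SE 0.471) did not pass. Igf2r had 1932, 1531, 369, 346 and 762 CDS footprints over its 7449-nt CDS, or 44.9, 41.8 and 46.4 RPKM untreated and 41.3 and 47.5 with KCl. Insr had 446, 382, 92, 92 and 198 CDS footprints, or 18.8, 18.9 and 20.9 RPKM untreated and 19.9 and 22.3 with KCl. In both receptors the groups overlapped. When all 22374 transcripts with a read in RNAseq or on the CDS in RF were fitted, the leading transcripts of Igf1, Igf2r and Insr were not called in any assay, at adjusted p between 0.345 and 1 (edgeR), where 18.5% of transcripts changed in RNAseq, 23.7% in RF and 1.76% in TE. In that fit, the log2 changes in RF were 0.11 for Igf1 (SE 0.303), 0.08 for Igf2r (SE 0.0987) and 0.21 for Insr (SE 0.147).

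Footprints on the 5′UTR were most numerous in Igfbp5. Over the 5 RF libraries together it had more 5′UTR footprints than any other of the 13184 leading transcripts (rank 1, against rank 11 for CDS footprints). The counts were 5568, 4815 and 1784 without KCl and 939 and 1940 with it. They made up 29.6%, 30% and 42.2% of its 5′UTR and CDS footprints untreated and 21.4% and 21.5% with KCl, so that the groups did not overlap. The median share over 3815 leading transcripts tested with a 5′UTR of at least 50 nt was 5.38% untreated and 5.49% with KCl, and the untreated Igfbp5 share lay above 94.9% of them. Per nucleotide, its 5′UTR carried 0.46, 0.467 and 0.796 times the footprints of its CDS untreated and 0.297 and 0.299 times with KCl. The untreated mean of 0.574 lay above 65.5% of the leading transcripts, whose median was 0.363, and below the means of Insr (0.835), Igf2r (0.753), Igf1 (0.663) and Igfbp2 (0.657). The 5′UTRs of these genes are shorter (489, 131, 282 and 77 nt), and reads near the start codon could not be left out. Igf2r had 62 5′UTR footprints in all. The share of Igf1 was also high and lower with KCl, at 24.7%, 21.2% and 38.5% untreated and 20% and 14% with KCl, from 57 5′UTR footprints in all, and overlapped that of Igfbp5 in the untreated cultures. In RNAseq, 587, 733, 676, 535 and 631 reads lay on the same 5′UTR in cultures 1 to 5. As shown above, no ATG lies in these 745 nt, and the counts do not show where within the 5′UTR the footprints lie.

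**Figure D4:**
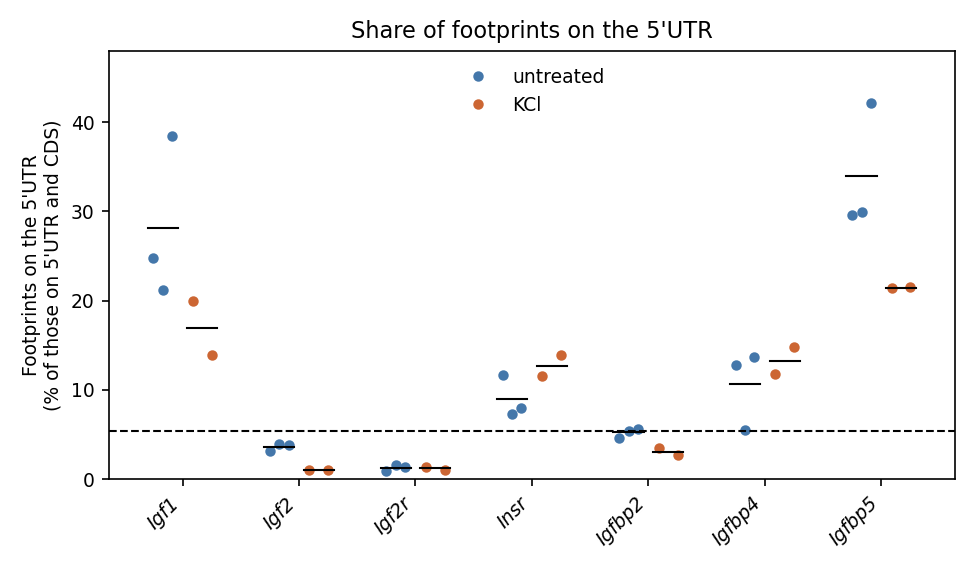
Share of 5′UTR footprints among the 5′UTR and CDS footprints of the leading transcript of each IGF gene. Points are cultures, bars are group means (untreated n = 3, KCl n = 2), and the dashed line is the untreated median of 5.38% over the leading transcripts tested. Igfbp5 lies between 29.6% and 42.2% untreated and at 21.4% and 21.5% with KCl.

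The change of 5′UTR footprints with KCl was tested over 5540 transcripts with a mean of at least 10 such reads per RF library. Of the 7 leading IGF transcripts in this fit, 1 fell and none rose, and 2.92% of all transcripts in it fell. The log2 change of Igfbp5 was −0.56 (SE 0.239, edgeR adjusted p = 0.156) and that of Igfbp2 was −0.65 (SE 0.248, edgeR adjusted p = 0.11). Summing 5′UTR and CDS footprints of Igfbp5 accordingly reduced its RF change to 0.20 (SE 0.0723, edgeR adjusted p = 0.0251). Scaled by the library sizes of the printed RPKM, this sum was higher in untreated culture 3 than in KCl culture 4, so the groups overlapped. The 5′UTR value of Igfbp5 passed without untreated culture 2 (−0.55, edgeR adjusted p = 0.0246) and that of Igfbp2 without untreated culture 3 (−0.76, edgeR adjusted p = 0.0477). Igf1 (−1.01, SE 0.585), Igf2r (−0.31, SE 0.534), Igfbp4 (0.27, SE 0.425) and Insr (0.50, SE 0.364) did not pass.

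The leading Igf2 transcript was the member that fell. Its 5′UTR lies in a first exon that none of the other 4 Igf2 transcripts overlaps and that begins at chr7:142659489. Footprints there numbered 46, 49 and 11 without KCl and 3 and 7 with it. As counts per library size (CPM) these were 7.96, 9.95 and 10.3 untreated and 2.67 and 3.25 with KCl, without overlap. The log2 change was −1.80 (SE 0.489, edgeR adjusted p = 0.024). RNAseq reads on the same 5′UTR were also fewer, at 10.5, 14.8 and 15.1 CPM untreated and 5.75 and 9.53 with KCl, while the change over the whole transcript was −0.07, as given above. The call was lost with library totals (−1.70, edgeR adjusted p = 0.0718), without KCl culture 4 (−1.76, edgeR adjusted p = 0.14) and without KCl culture 5 (−1.90, edgeR adjusted p = 0.271).

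The ratio of 5′UTR to CDS footprints was then tested, a comparison added after the values had been seen. Of 4 leading IGF transcripts, 1 fell, and 0.336% of the 3573 transcripts in this fit fell. That transcript was Igf2 with a log2 change of −2.09 (SE 0.454, edgeR adjusted p = 0.0261), which did not pass without untreated culture 1, KCl culture 4 or KCl culture 5 or with library totals. For Igf2, the ratio sets the 5′UTR of a single transcript against CDS footprints that its isoforms largely share. RNAseq reads per kb were 12.7 to 34.6 on that 5′UTR and 225 to 326 on the CDS over the 5 cultures. The part of a change in the use of that first exon was not tested. The log2 change of Igfbp5 was −1.01 (SE 0.286, edgeR adjusted p = 0.099) and that of Igfbp2 was −0.97 (SE 0.296, edgeR adjusted p = 0.13). Without the replicate block, both passed (edgeR adjusted p = 0.0232 for Igfbp5 and 0.0474 for Igfbp2). Igfbp5 also passed without untreated culture 2 (−0.97, edgeR adjusted p = 0.00545). Igfbp4 was at 0.31 (SE 0.421, edgeR adjusted p = 0.768).

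Genes that act with the IGFs were described from a list of 55 genes, of which 50 had a counted transcript and 23 a tested leading transcript. In RNAseq 7 rose and 3 fell, in RF 5 rose and 5 fell, and in TE none rose and 1 fell. These are shares of a set in which, over all leading transcripts tested, 33.1% changed in RNAseq, 40.6% in RF and 5.93% in TE in either direction. The median log2 change of the 23 was 0.29 in RNAseq, 0.16 in RF and −0.10 in TE.

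Of the other ligands, binding proteins and proteases, 3 of 11 were tested and none passed in RF or TE. Igfbpl1, a protein related to the IGF binding proteins, fell in RNAseq (log2 change −0.45, SE 0.169, edgeR adjusted p = 0.0362), from 35.6, 31.3 and 30.7 RPKM to 21.7 and 25.9. Igfbp6, a binding protein with a preference for IGF2, had log2 changes of −0.60 in RNAseq (SE 0.275, edgeR adjusted p = 0.0915) and 1.06 in TE (SE 0.369, edgeR adjusted p = 0.0638). Its TE was 1.66, 0.97 and 1.37 untreated and 2.70 and 2.72 with KCl.

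Among the 4 tested adaptors and negative regulators, Gab1, a docking protein of receptor tyrosine kinases, rose in RNAseq (0.47) and RF (0.40). In the PI3K and AKT group of 8 tested genes, 3 rose in RNAseq, 2 rose in RF and 1 fell in RF and TE. Phlpp1, a phosphatase that removes an activating phosphate from AKT, had RF levels of 26.3, 25.1 and 23.3 RPKM untreated and 49.2 and 49.5 with KCl. Its log2 change was 0.88 in RNAseq (SE 0.163, edgeR adjusted p = 3.92e-05) and 0.97 in RF (SE 0.107, edgeR adjusted p = 2.51e-08), with 0.11 in TE. Inppl1, the phosphatase SHIP2, which acts on the PI3K product, rose by 0.56 in RNAseq and 0.53 in RF. Pdpk1, the kinase PDK1, passed in RNAseq only (0.39). Akt1 moved in the other direction in footprints. Its RNAseq levels were 52.8, 49.9 and 63.1 RPKM untreated and 63.1 and 74 with KCl, while its RF levels were 29, 27.1 and 35.8 untreated and 17.3 and 11.3 with KCl. RF of Akt1 fell by 1.12 (SE 0.222, edgeR adjusted p = 0.000179) and TE by 1.48 (SE 0.275, edgeR adjusted p = 1.16e-05).

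In the TSC, mTOR and translation group of 5 tested genes, 3 fell in RF. Eif4ebp2, a repressor of cap-dependent translation, fell in RF by 1.08 (SE 0.254, edgeR adjusted p = 0.00114), from 75.5, 73.9 and 96.2 RPKM to 32.1 and 40. Mtor fell in RF by 0.60 (SE 0.128, edgeR adjusted p = 0.000387). Ddit4, an inhibitor of mTOR complex 1, fell in RNAseq by 1.08 (SE 0.203, edgeR adjusted p = 4.84e-05) and in RF by 0.37 (SE 0.144, edgeR adjusted p = 0.0416). Rheb, the GTPase that activates mTOR, passed in RNAseq only (0.42). All 3 tested FoxO and GSK3 genes changed in both assays. Foxo3 rose by 0.57 in RNAseq and 0.66 in RF, Gsk3b by 0.54 and 0.39, and Foxo1 fell by 0.63 and 0.62. None of the 3 Igf2 mRNA binding protein genes met the minimum.

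**Figure D5:**
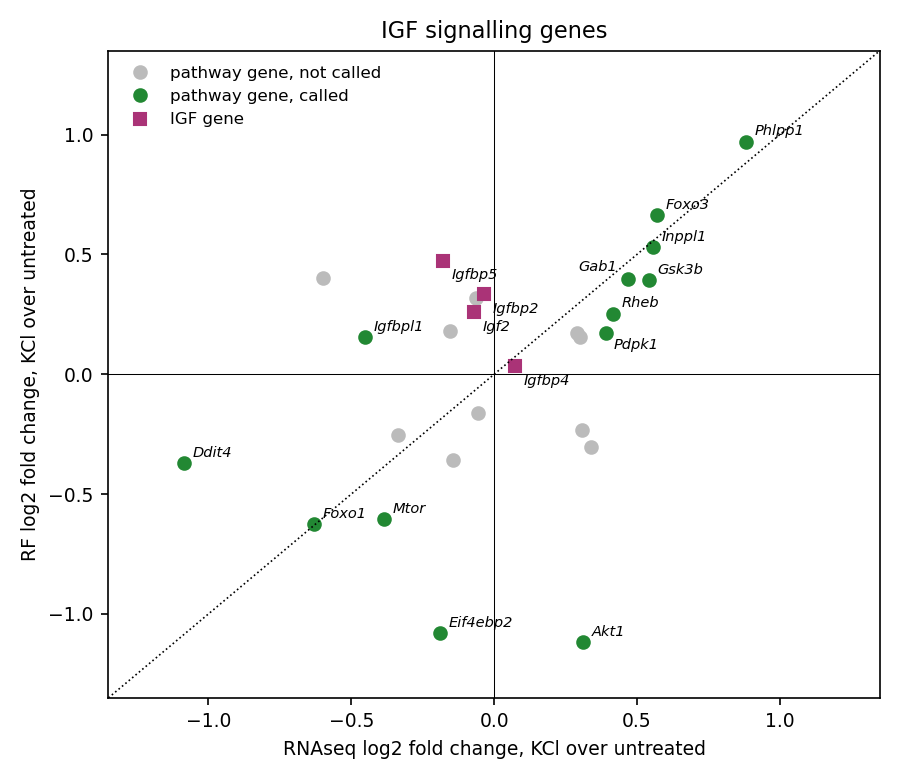
Log2 fold change of KCl over untreated cultures in RNAseq (horizontal) and RF (vertical) for the tested pathway genes (circles, green where called in RNAseq, RF or TE) and the 4 tested IGF genes (squares). The dotted line marks equal change in both assays. Igf2, Igfbp2 and Igfbp5 lie near 0 in RNAseq and between 0.26 and 0.47 in RF, and Akt1 lies furthest below the line.

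For the other marker lists, the summed RNAseq level overlapped between the groups for neurons and for fibroblasts and meninges (1439 to 1803 RPKM untreated, 1630 to 1841 with KCl), and the KCl range lay below the untreated range for microglia (161 to 177 and 135 to 148), the oligodendrocyte lineage (1570 to 1770 and 1530.5 to 1552) and pericytes and smooth muscle (42.7 to 49.4 and 28.2 to 33.4). For endothelial cells it was 10.3 to 11.7 untreated and 11.8 to 13.4 with KCl. Most of the fibroblast and meninges sum was Ptgds (1259 to 1579 RPKM untreated, 1439 and 1675 with KCl). In that list Foxc1, Lum and Col1a1 were lower with KCl without overlap, Col3a1 was higher without overlap, and Dcn overlapped. Map2, Tyrobp, Col1a2 and Slc6a13 were not analysed here, and no other marker was at 0 in RNAseq in all cultures. Tek was at 0 in the 3 untreated cultures, Kcnj8 in all but untreated culture 2, and Myh11 in 3 of the 5. In RNAseq, 1 marker of the oligodendrocyte lineage and 1 of fibroblasts and meninges fell, and none rose in these lists.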

How the data were processed

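The members and gene lists were chosen with earlier results of these data known. The authors trimmed reads with Trimmomatic 0.32, removed rRNA with STAR and aligned with Bowtie2 2.2.2 to the mouse mm10 transcriptome. Multi-mapped reads stayed in. The authors deposited raw read counts per transcript region, made with bedtools 2.20.1 (versions from the submitters' processing notes). A KCl replicate was removed by the authors for its low library size. The letters of the regions were read as 5′UTR (a), CDS (b) and 3′UTR (d) from order and read shares against annotated lengths. Region c is unnamed and was counted in RNAseq only. Positions near start and stop codons could not be left out, since the counts are per region.

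Of 22534 transcripts with a read, 98.4% were matched by Ensembl ID to GENCODE M21 (GRCm38). The authors' annotation may differ in region lengths. RNAseq used reads on all regions and RF reads on the CDS. The minimum of 10 RPKM used all counted reads of a library. Printed RPKM were scaled by the reads on tested transcripts times their TMM factors, between 0.944 and 1.04, with coding lengths without the stop codon. Tests used edgeR 4.0.16 in R 4.3.3, with quasi-likelihood fits, robust dispersions, TMM within each assay and Benjamini-Hochberg adjustment over all transcripts tested. Change in TE was tested as the assay-by-treatment interaction, blocked by culture, because 1 lysate gave both libraries of a culture. The deviations of the 2 libraries of a culture from their group means correlated at r between −0.07 and 0.06 over 7262 transcripts. Standard errors are the absolute log2 change over the square root of F and are approximate. Nothing in the labels says that cultures came from separate litters, so p-values measure the spread between these cultures.

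The genes named are all 10 IGF genes, pathway genes with an adjusted p under 0.05 (up to 5 in each direction with values), and the 5 genes most similar to the member with the smallest RF p, on log2 of CPM with a pseudocount of 0.5. Igfbp6 was named after its values had been seen. Pathway and marker genes were taken by their leading transcript. Alternatives were DESeq2 1.42.0, library totals, filterByExpr, no filter beyond 1 read, gene sums, other regions, 1 fit of all 10 libraries, no replicate block, and leaving out each culture. The fits were run on simulated counts with rises larger than the RNAseq, RF and TE changes of the leading IGF transcripts. Their power at the sizes seen here was not tested. Tables were made in Python 3.11.15 with pandas and numpy.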

Additional observations from a re-analysis of the deposited data

How the results depend on the processing

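The number of transcripts called over the whole series moved with the filter and the unit. In RNAseq it was 2395, against 4141 with no filter beyond 1 read, 3923 with filterByExpr, 1529 with CDS reads and 1426 with gene sums. In RF it was 2971, against 5311, 5292 and 1671 with no filter, filterByExpr and gene sums. In TE it was 421, against 266 with CDS reads of RNAseq, 174 with DESeq2, 240 with gene sums and 420 without the replicate block. For 5′UTR footprints it was 459, and 218 with library totals. For the ratio of 5′UTR to CDS footprints it was 45, 13 with library totals and 89 without the replicate block. Leaving out each culture in turn gave 1638 to 2637 calls in RNAseq, 1698 to 3233 in RF, 70 to 547 in TE, 84 to 592 for 5′UTR footprints and 2 to 63 for the ratio, with the lowest counts without a KCl culture.

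Of the leading IGF transcripts, 0 were called in RNAseq in any setting. In RF, 3 were called, 2 with library totals, 5′UTR reads added, 1 fit of all libraries, DESeq2 or gene sums, and 1 to 3 when a culture was left out. In TE, 1 was called, and 0 to 2 when a culture was left out. For 5′UTR footprints 1 was called, 0 with library totals and 0 to 2 when a culture was left out. For the ratio 1 was called, 0 with library totals, 3 without the replicate block and 0 to 2 when a culture was left out. The replicate block changed no call of a leading IGF transcript in TE. Over single IGF transcripts, the RF call of Igfbp5 held in all 12 alternatives (0.20 to 0.55 on the log2 scale), that of Igfbp2 in 11 of 12, and that of Igf2 in 5 of 12. Igfbp5 kept its TE call in 10 of 12.

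Library totals in place of TMM shifted the median log2 change of all transcripts tested in RF from −0.01 to −0.11, and that of the ratio from −0.03 to 0.14. Rises were then 37.5% of RF calls, against 50.9%, and 42.5% of RNAseq calls, against 54.3%. For 5′UTR footprints they were 78% against 64.7%. No called value of an IGF transcript reversed its direction. In RNAseq, Igfbp2 was at 0.021 with no filter, 0.024 with filterByExpr, 0.071 with CDS reads, and −0.15 to 0.068 when a culture was left out. Igfbp4 was at −0.0046 with library totals and −0.23 with CDS reads in RNAseq, and at −0.068 with library totals in RF. In TE, Igfbp4 was at 0.25 with CDS reads and 0.046 with gene sums. When a culture was left out, Igfbp4 ranged from −0.13 to 0.21 in RF, from −0.20 to 0.088 in TE and from −0.13 to 0.80 on the 5′UTR, and Igf2r from −0.55 to 0.041 on the 5′UTR. The cause of these changes was not tested. Fits without a KCl culture leave 1 sample in that group, which is assumed to vary like the untreated cultures.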

Other observations

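Footprints outside the 5′UTR and CDS were few in the IGF genes. On the 3′UTR, the leading Igfbp5 transcript had 60, 73, 15, 11 and 26 footprints in cultures 1 to 5 (185 in all), which is 0.492% of its footprints there and on the CDS. Igf2 had 17, 6, 20, 2 and 4, so that untreated culture 3, a shallow library, held the most. Igfbp2 had 14 in all and Igfbp4 had 3. Igf1, Igf2r and Insr had 0 in all 5 libraries together, which allows up to 3 reads.

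RNAseq reads of Igf2 lay on the 3′UTR to between 87.1% and 91.5%, those of Igfbp2 to between 31.6% and 33.9%. The second Igfbp2 transcript (ENSMUST00000120564), whose CDS starts at chr1:72849142-72849144, had 54.5 ± 19.8 CPM of 5′UTR footprints untreated (SD, n = 3) and 61.7 ± 4.56 with KCl (SD, n = 2), and its log2 change of 0.06 (SE 0.257, edgeR adjusted p = 0.93) differs in sign from that of the leading transcript. The leading start codon (chr1:72824580-72824582) lies upstream of the first base of this second transcript (chr1:72825322). The 5′UTRs of the pair therefore share no bases, and the signs do not compare the same sequence. Whether the second 5′UTR holds bases that are coding in the leading transcript was not tested, nor was the difference in sign. Reads shared by isoforms were counted on each of them.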
